A study of Mus musculus with 6 samples.

Results

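Regions of accessible chromatin at microRNA genes were examined in the mouse embryonic stem cell line R1. An accessible region was taken as a member when its midpoint lay within 1 kb of either limit of an annotated microRNA gene on chromosomes 1 to 19. The stem cell microRNA clusters of the miR-290 and miR-302 families, 14 annotated genes, were left out by rule. The rule found 205 regions among 68288 on these chromosomes, at 228 of 1122 microRNA genes. It used positions only, so the cluster name, the width and the neighbouring genes of each region were not part of the choice. Wild-type R1 cells grew on mouse embryonic fibroblast feeders with serum, LIF and the inhibitors CHIR-99021 and PD0325901, were separated from the feeders by replating, and were profiled by ACC-seq, an assay that uses Tn5 transposase to cut and tag open DNA. The 6 libraries were 2 of Fix_1,6-Hex cells, 2 of Fix cells and 2 of Fresh cells. Fix_1,6-Hex cells spent 30 s in 1,6-hexanediol at 10% (w/v) and were fixed for 10 min in 1% formaldehyde that also held this alcohol, which disperses many protein condensates. Fix cells were fixed for 10 min in 1% formaldehyde without 1,6-hexanediol, and Fresh cells were not fixed. Nuclei of both fixed groups were tagmented at 55 °C and Fresh nuclei at 37 °C, so Fix and Fresh cells differ in more than fixation.

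The table analysed here holds, for each region, a position on the mm10 mouse genome and the name of 1 of 9 clusters given by the authors. It has no value for any library, so nothing below compares Fix_1,6-Hex, Fix and Fresh cells, depth is unknown, and what accessibility pattern a cluster name stands for was not stated in the labels. Shares carry exact binomial 95% intervals, which cover counting error only and treat regions and genes as independent. Where a count is 0, the share it allows is given as 3 counts of the total, beside the upper bound of the exact interval. No test was run between the regions at microRNA genes and other regions, so the shares are set side by side as descriptions.

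MicroRNAs are short RNAs that pair with messenger RNAs, mainly through the seed near their 5′ end, and lower their translation and stability. Their precursors are hairpins, cut by Drosha in the nucleus and by Dicer in the cytoplasm. Many hairpins lie in introns of a host gene and share its promoter, and others have transcripts of their own. In embryonic stem cells microRNAs of the miR-290, miR-302 and miR-17 groups favour proliferation, while let-7 microRNAs accumulate as cells differentiate.

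The mature microRNAs below come from genes with an accessible region. They were picked, after their clusters were seen, from sets that share a seed and lie at regions of more than 1 cluster. In some of these sets nearly the whole sequence is shared. Of 19 seeds found at 2 or more loci with a region, others kept 1 cluster. In cluster 1 these were Mir34b with Mir449c, Mir199a-1 with Mir199a-2 (by their 5p RNAs) and Mir6927 with Mir6945. Mir423 and Mir6921 were both in cluster 8, and Mir2861 and Mir3091 both in cluster 3. Regions without a shared seed were not compared. Sequences are from RefSeq for GRCm38.p6, written 5′ to 3′, with the seed (bases 2 to 8) in capitals.
miR-9-5p: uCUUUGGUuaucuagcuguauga
miR-199a-3p and miR-199b-3p: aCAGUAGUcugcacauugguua
miR-25-3p: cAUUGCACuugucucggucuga
miR-32-5p: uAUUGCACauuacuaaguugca
miR-92b-3p: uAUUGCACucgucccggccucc
miR-130a-3p: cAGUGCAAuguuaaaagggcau
miR-130b-3p: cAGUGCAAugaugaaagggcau
miR-193a-3p: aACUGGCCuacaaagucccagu
miR-193b-3p: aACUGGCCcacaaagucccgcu
miR-219a-5p: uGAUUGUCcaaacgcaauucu
let-7g-5p: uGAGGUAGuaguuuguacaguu
let-7i-5p: uGAGGUAGuaguuugugcuguu

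Clusters 1 and 8 held the most regions at microRNA genes, and cluster 9, the most numerous cluster of the whole table, held fewer of them. Cluster 1 took 52 of the 205 regions (25.4%, 95% interval 19.6 to 31.9), against 18.7% of all autosomal regions. Cluster 8 took 43 (21.0%, 15.6 to 27.2), against 9.07% of all regions. Cluster 9 took 28 (13.7%, 9.27 to 19.1), against 26.3%, and cluster 7 took 23 (11.2%, 7.25 to 16.4), against 18.9%. Cluster 6 took 18 (8.78%, 5.29 to 13.5), against 12.6%, which lies inside the interval. Cluster 5 was the rarest, with 3 regions (1.46%, 0.303 to 4.22) against 4.93%.

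The 3 remaining clusters were small in both sets. Cluster 3 held 16 regions (7.80%, 4.53 to 12.4) against 3.66% of all regions. Cluster 4 held 12 (5.85%, 3.06 to 10.0) against 3.51%, and cluster 2 held 10 (4.88%, 2.36 to 8.79) against 2.3%. The share of all regions lay inside the interval for cluster 4, and below it for clusters 2 and 3.

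**Figure D1:**
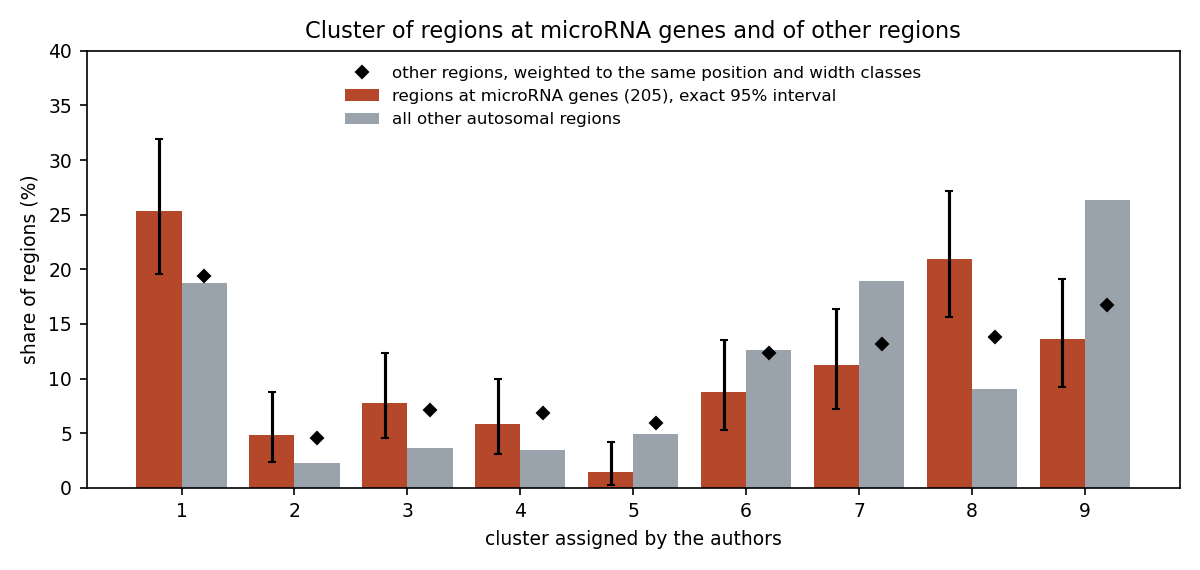
Share of regions (%) in each of the 9 clusters, for the 205 regions at microRNA genes (left bars, with exact binomial 95% intervals) and for all other autosomal regions (right bars); diamonds give the other regions weighted to the same mix of position and width classes. Clusters 1 and 8 hold 25.4% and 21.0% of the regions at microRNA genes, and the weighted diamond of cluster 9 (16.7%) lies inside the interval of the left bar.

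More of the regions at microRNA genes than of other regions lay at the limits of protein-coding genes, and fewer lay between such genes. Of the 205 regions, 78 (38.0%, 31.4 to 45.1) lay within 1 kb of either limit of a protein-coding gene, against 18.7% of other regions. A further 86 (42.0%, 35.1 to 49.0) lay inside such a gene away from its limits, against 43.1%, and 41 (20.0%, 14.8 to 26.1) lay between genes, against 38.2%. Outside chromosome 18, 61 of 197 regions (31.0%, 24.6 to 37.9) covered a transcription start of a protein-coding gene in the RefSeq promoter table, against 14.9% of other regions, and 13 (6.60%, 3.56 to 11.0) covered a start of a long non-coding RNA gene, against 3.04%. Of the 41 regions between protein-coding genes, 16 lay at or inside a long non-coding RNA gene, among them the named host transcripts Mir9-3hg, Mir124a-1hg, Mir124-2hg, Mir100hg and Mir205hg. That count was not made for other regions between protein-coding genes, so it cannot be compared. In all, 4 of the 205 regions also lay within 1 kb of a transfer RNA gene, 1 at a small nucleolar RNA gene and 0 at a small nuclear RNA gene. Of all 68288 autosomal regions, 167, 112 and 84 lay at genes of these 3 kinds.

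Part of the cluster shares moved with position and width. When the other regions were weighted to the members' mix of position and width classes, cluster 9 held 16.7% and cluster 7 held 13.2% of them, both inside the members' intervals. The weighted shares of clusters 2, 3, 4 and 6 (4.53%, 7.16%, 6.88% and 12.4%) also lay inside. Cluster 8 held 13.8% after weighting, below the interval of 15.6 to 27.2, and cluster 5 held 5.97%, above its interval. Cluster 1 held 19.4%, just below the lower bound of 19.6. The classes are coarse: the gene-limit class does not separate starts from other limits, and the widest class has no upper bound. Weighting therefore did not match covered starts, or widths within a class.

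The share of clusters 1 and 8 differed between positions. Among the 78 regions at protein-coding gene limits, cluster 8 held 25 (32.1%, 21.9 to 43.6), against 21.9% of other regions there, while cluster 1 held 15 (19.2%, 11.2 to 29.7), against 20.6%. Inside genes the order turned: cluster 1 held 26 of 86 (30.2%, 20.8 to 41.1), against 18.9%, and cluster 8 held 9 (10.5%, 4.90 to 18.9), against 6.41%. Between genes cluster 1 held 11 of 41 (26.8%, 14.2 to 42.9), against 17.7%, and cluster 8 held 9 (22.0%, 10.6 to 37.6), against 5.66%. Those 9 include the regions of Mirlet7i, Mir9-3, Mir124a-1 and Mir193a, which have no protein-coding gene limit within 1 kb.

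Regions at microRNA genes were wide. The width of regions at microRNA genes ranged from 200 to 8133 bp with a median of 924 bp (95% interval of the median 759 to 1094), against a median of 473 bp in other regions. At gene limits the median was 1418.5 bp for regions at microRNA genes, against 1046 bp for other regions. Inside genes it was 508.5 bp, against 419 bp for other regions, and between genes 759 bp, against 410 bp. Within clusters the medians ran from 358 bp in cluster 7, close to the 345 bp of other cluster 7 regions, to 1991 bp in cluster 4, against 1366 bp. Cluster 6 was the only cluster in which the median of the regions at microRNA genes, 541 bp, was below that of other regions, 584 bp.

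**Figure D2:**
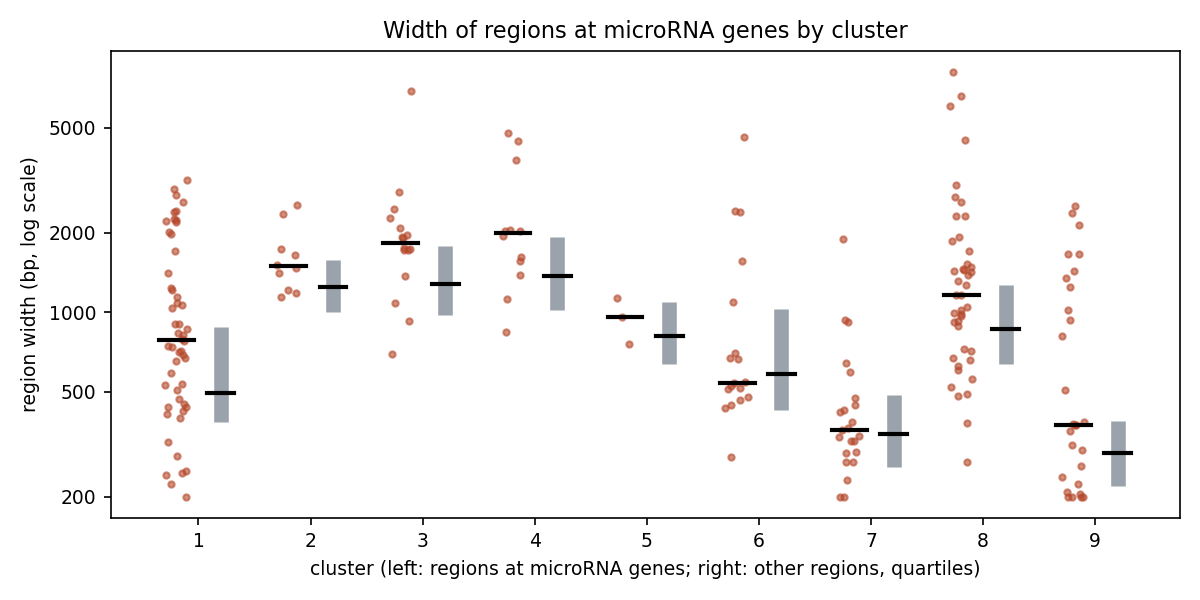
Width in bp (log scale) of each region at a microRNA gene by cluster (points, with a bar at the median) and of other autosomal regions (grey, lower to upper quartile, with a bar at the median). Points of cluster 7 sit around a median of 358 bp, and those of cluster 8 reach 8133 bp.

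The 5 widest regions spanned several kb, and 4 of them covered a protein-coding start. The region of Mir6935 spanned chr11:120343507-120351639 (8133 bp, cluster 8) and covered the start of Actg1, which encodes gamma actin. The region of Mir130a spanned chr2:84737762-84744679 (6918 bp, cluster 3) between protein-coding genes, at a limit of the long non-coding RNA gene Gm19426. Those of Mir7653 (6594 bp) and Mir1900 (6052 bp) were in cluster 8 and covered starts of Tlcd1 and Nek8 and of Icam4 and Icam5. The region of Mir191 and Mir425 spanned chr9:108566211-108570996 (4786 bp, cluster 4) inside Dalrd3 and covered its start.

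Most regions reached the microRNA gene itself. Of these regions, 126 (61.5%) overlapped a microRNA gene and 120 (58.5%) held at least 1 such gene whole. For 189 regions the strand of the nearest microRNA gene was known. In 110 of these (58.2%) the midpoint lay upstream of the 5′ end of the gene, in 10 (5.29%) inside it, and in 69 (36.5%) downstream. Around the 966 microRNA genes of known strand there were 125 regions per 1000 genes in the first kb upstream of the 5′ end and 88.0 in the first kb downstream. The 18 other bins of 1 kb out to 10 kb on either side held 55.9 to 92.1 regions per 1000 genes.

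**Figure D3:**
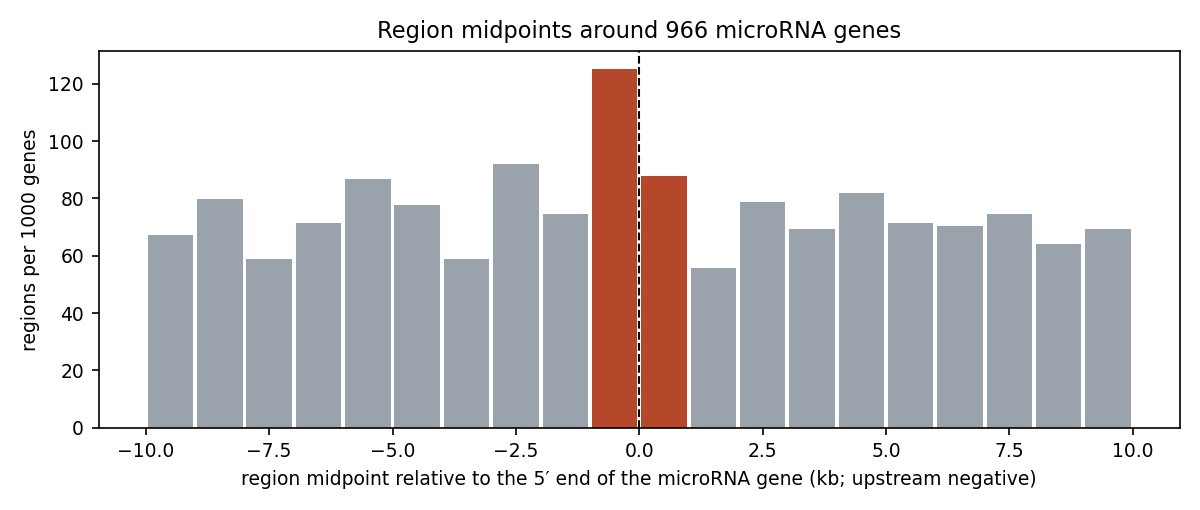
Number of region midpoints per 1000 microRNA genes in bins of 1 kb, by distance in kb from the 5′ end of the gene, upstream negative, over 966 genes of known strand; the 2 bins nearest to the 5′ end are coloured. The first bin upstream holds 125 midpoints per 1000 genes and the first bin downstream 88.0.

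MicroRNA genes had a region less often than protein-coding genes did, but the targets differ in size. The windows at both limits of a short microRNA gene merge, while those of a long gene are separate and cover more sequence. The shares below are not corrected for this. A region lay within 1 kb of 228 of 1122 microRNA genes (20.3%, 18 to 22.8), against 62.5% of 20665 protein-coding genes. The share was 31.4% for 12408 long non-coding RNA genes, 60.1% for 391 transfer RNA genes, 9.88% for 1286 small nucleolar RNA genes and 9.13% for 931 small nuclear RNA genes. A microRNA gene with its midpoint within 1 kb of a protein-coding gene limit had a region in 87 of 133 cases (65.4%, 56.7 to 73.4). Inside protein-coding genes the share was 90 of 669 (13.5%, 11.0 to 16.3), and between them 51 of 320 (15.9%, 12.1 to 20.4). Cluster 8 held 21.0% of the regions at microRNA genes, against 22.0% at protein-coding gene limits and 14.0% at long non-coding RNA genes. It held 16.8% of those at transfer RNA genes, 8.93% at small nucleolar RNA genes and 7.14% at small nuclear RNA genes. Regions can belong to several of these classes.

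MicroRNA genes that lie close together share regions, so loci were also counted. Genes within 10 kb of each other formed 893 loci, of which 202 (22.6%, 19.9 to 25.5) had a region. Loci of 2 or more genes had one in 27 of 86 cases (31.4%, 21.8 to 42.3), and loci of 1 gene in 175 of 807 (21.7%, 18.9 to 24.7). A locus was counted when any of its genes had a region, so loci of more genes cover more sequence. These 2 shares are not corrected for this. Of the 205 regions, 19 lay within 1 kb of 2 or more microRNA genes. The region with most, chr13:63300019-63301728 of cluster 1 at a limit of Fancc and inside Aopep, held Mir23b, Mir27b, Mir3074-1 and Mir24-1 whole.

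MicroRNA names are numbered in the order of their registration, so low numbers include many of the abundant and conserved families. Genes numbered below 1000, with let-7, had a region in 71 of 447 cases (15.9%, 12.6 to 19.6), and genes numbered 1000 or above in 146 of 629 (23.2%, 20.0 to 26.7). Without the genes of the Dlk1-Dio3 span and of Sfmbt2, none of which had a region, the shares were 71 of 325 (21.8%, 17.5 to 26.7) for low numbers and 146 of 622 (23.5%, 20.2 to 27.0) for high numbers. Of the regions nearest to a low-numbered gene, 23 of 56 (41.1%) lay between protein-coding genes, and of those nearest to a high-numbered gene, 18 of 143 (12.6%). Cluster 7 held 11 of the 56 low-numbered regions (19.6%) and 11 of the 143 high-numbered ones (7.69%). Cluster 9 held 3 low-numbered (5.36%) and 24 high-numbered regions (16.8%), and cluster 8 held 19.6% of the low-numbered and 22.4% of the high-numbered.

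Among 14 lists of microRNA genes, written from general knowledge, the neuronal list had the largest number of genes with a region. Of 23 neuronal genes, 13 had one (56.5%, 34.5 to 76.8), against 20.3% of all microRNA genes. All 3 copies of the miR-9 gene had a region, and so did all 3 copies of the miR-124 gene, both microRNAs of neural progenitors and neurons. In all lists together 46 of 219 genes (21.0%, 15.8 to 27.0) had a region, and outside the lists 182 of 903 (20.2%, 17.6 to 22.9).

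The 12 regions of the neuronal list were spread over 7 clusters. Cluster 1 and cluster 8 held 3 each, cluster 9 held 2, and clusters 3, 4, 6 and 7 held 1 each. The miR-9 copies, which give the same mature RNA, lay at regions of 3 clusters. Mir9-1 had a cluster 9 region (chr3:88214290-88215540, 1251 bp), Mir9-2 a cluster 7 region (chr13:83738394-83738625, 232 bp) and Mir9-3 a cluster 8 region (chr7:79504674-79505397, 724 bp). Only the region of Mir9-3 held its hairpin whole. The midpoint lay 683 bp from the gene at Mir9-1, 304.5 bp at Mir9-2 and 228.5 bp at Mir9-3.

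The hairpin of Mir9-3 is printed because the whole of it lies inside an accessible region. It comes from chr7:79505264-79505353 on the plus strand of GRCm38.p6, with both mature arms in capitals.
Mir9-3 hairpin: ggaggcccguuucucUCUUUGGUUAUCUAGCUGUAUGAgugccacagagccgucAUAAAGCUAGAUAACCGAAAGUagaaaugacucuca

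The other neuronal genes had regions of mixed kind. Mir124a-1 had a cluster 8 region of 1709 bp inside Mir124a-1hg, and Mir124a-2 and Mir124a-3 had cluster 1 regions of 410 and 2231 bp. Mir132 and Mir212, which are induced by neuronal activity, shared a cluster 3 region of 1718 bp that held both genes. Mir219a-1 lay in a cluster 4 region of 1117 bp that covered the start of Ring1, a Polycomb gene, whereas Mir219a-2, with the same 5p RNA, was near a cluster 1 region inside Cercam. Mir128-2 had a cluster 6 region inside Arpp21, Mir138-2 a cluster 9 region inside Nup93, and Mir153 a cluster 8 region inside Ptprn2. The 10 neuronal genes without a region were 1.03 kb (Mir129-2) to 102 kb (Mir218-1) from the nearest region midpoint.

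**Figure D4:**
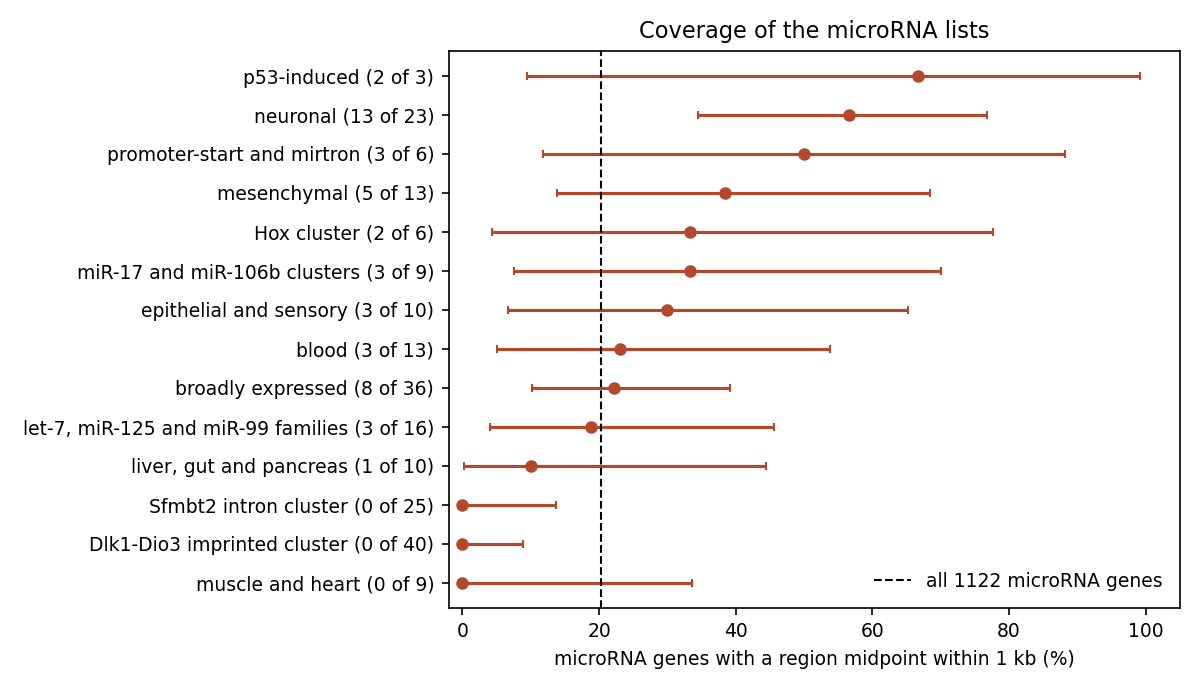
Share (%) of the genes of each microRNA list that have a region midpoint within 1 kb (points), with exact binomial 95% intervals; the dashed line is the share of all 1122 microRNA genes. The neuronal list (13 of 23) has an interval above the line, and those of the Dlk1-Dio3 (0 of 40) and Sfmbt2 (0 of 25) lists lie below it. The genes of each of the latter lists lie together in 1 span, so their intervals may be too narrow.

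Of the 9 genes of the miR-17 and miR-106b clusters, 3 had a region (33.3%, 7.49 to 70.1), against 20.3% of all microRNA genes. The miR-106b cluster, with Mir106b, Mir93 and Mir25, lay inside 1 cluster 7 region of 932 bp (chr5:138165159-138166090) within Mcm7, a DNA replication licensing gene. The 6 genes of the miR-17 cluster had no region within 1 kb. Their nearest region was the same for all, a cluster 1 region at chr14:115040231-115042710 (2480 bp), with its midpoint 2.20 kb from Mir17 and 2.96 kb from Mir92-1. Of 16 genes of the let-7, miR-125 and miR-99 families, 3 had a region (18.8%, 4.05 to 45.6), close to the 20.3% of all microRNA genes. Mirlet7i lay inside a cluster 8 region of 1463 bp, Mirlet7g was 679.5 bp from the midpoint of a cluster 7 region of 446 bp inside Wdr82, and Mir125b-1 was 994.5 bp from that of a cluster 1 region of 322 bp, close to the limit of the rule.

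The 5p RNAs of Mir106b and Mir93 share their seed, while the seed of miR-25-3p, printed above, is that of miR-32-5p and miR-92b-3p.
miR-106b-5p: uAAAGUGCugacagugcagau
miR-93-5p: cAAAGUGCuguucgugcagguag
Of 4 genes with the seed AUUGCAC among those with a mature sequence, 3 had a region. Mir25 and Mir32 had cluster 7 regions, inside Mcm7 and Tmem245, and Mir92b had a cluster 8 region of 4479 bp at a limit of Thbs3. The fourth, Mir92-1, belongs to the miR-17 cluster. Of 11 genes with the let-7 seed GAGGUAG among those with a mature sequence, 2 had a region.

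Among the mesenchymal microRNAs, which are abundant in fibroblasts, 5 of 13 genes had a region (38.5%, 13.9 to 68.4). The 20.3% of all microRNA genes lies inside this interval. Mir143 and Mir145a, which mark smooth muscle and fibroblasts, shared a cluster 1 region of 2408 bp. All 3 miR-199 genes, which lie inside the dynamin genes Dnm2, Dnm3 and Dnm1, had a region: cluster 1 for Mir199a-1 (792 bp) and Mir199a-2 (200 bp), and cluster 7 for Mir199b (364 bp). Mir21a and Mir22 had none, with the nearest region midpoints at 2.78 and 1.91 kb.

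Of 10 epithelial and sensory genes 3 had a region (30.0%, 6.67 to 65.2), and of 6 Hox cluster genes 2 had one (33.3%, 4.33 to 77.7), against 20.3% of all microRNA genes, which lies inside both intervals. Of these 5 regions, 4 were in cluster 1. The miR-200 family members Mir200c and Mir141 had separate cluster 1 regions of 905 and 505 bp, and Mir205 had one of 439 bp, with midpoints 968, 789 and 996 bp away. No epithelial gene kept a region with a window of 500 bp. Mir196b, which lies in the HoxA cluster, had a cluster 9 region (chr6:52229342-52230775, 1434 bp) that held it whole, and Mir615, in the HoxC cluster, had a cluster 1 region of 2259 bp at a limit of Hoxc5. The 4 other Hox microRNA genes were 1.39 to 4.06 kb from a region midpoint. Of 3 genes that p53 induces, 2 had a region (66.7%, 9.43 to 99.2), and the 20.3% of all microRNA genes lies inside this interval. These were Mir34b and Mir34c, near a shared cluster 1 region of 822 bp inside Btg4 and Hoatz, which held Mir34b. Mir34a had none, with the nearest region midpoint at 1.6 kb. With a window of 500 bp, 1 of the 3 genes had a region.

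Of 13 blood microRNA genes, 3 had a region (23.1%, 5.04 to 53.8), against 20.3% of all microRNA genes. Mir142 lay in a cluster 1 region of 1139 bp, and Mir144 and Mir451a, red cell microRNAs, were near a cluster 7 region of 270 bp, with Mir451b. Of 10 liver, gut and pancreas genes only Mir375, a microRNA of pancreatic islets, had one (10.0%, 0.253 to 44.5), a cluster 7 region of 1891 bp. The 9 muscle and heart genes had none within 1 kb, which allows a share of up to 33.3% (exact upper bound 33.6%). Among 36 broadly expressed genes, 8 had a region (22.2%, 10.1 to 39.2), again near the 20.3% of all microRNA genes. Besides Mir130a, Mir191 and Mir425 these were Mir130b and Mir301b, which shared a cluster 8 region of 1266 bp, Mir152 at the start of Copz2 (cluster 9, 1665 bp), Mir345 near the start of Slc25a29 (cluster 5, 958 bp) and Mir423 (cluster 8, 521 bp). Mir130a and Mir130b, with the same seed, were thus in clusters 3 and 8, and the related pair Mir193a and Mir193b, outside the lists, in clusters 8 and 6.

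**Figure D5:**
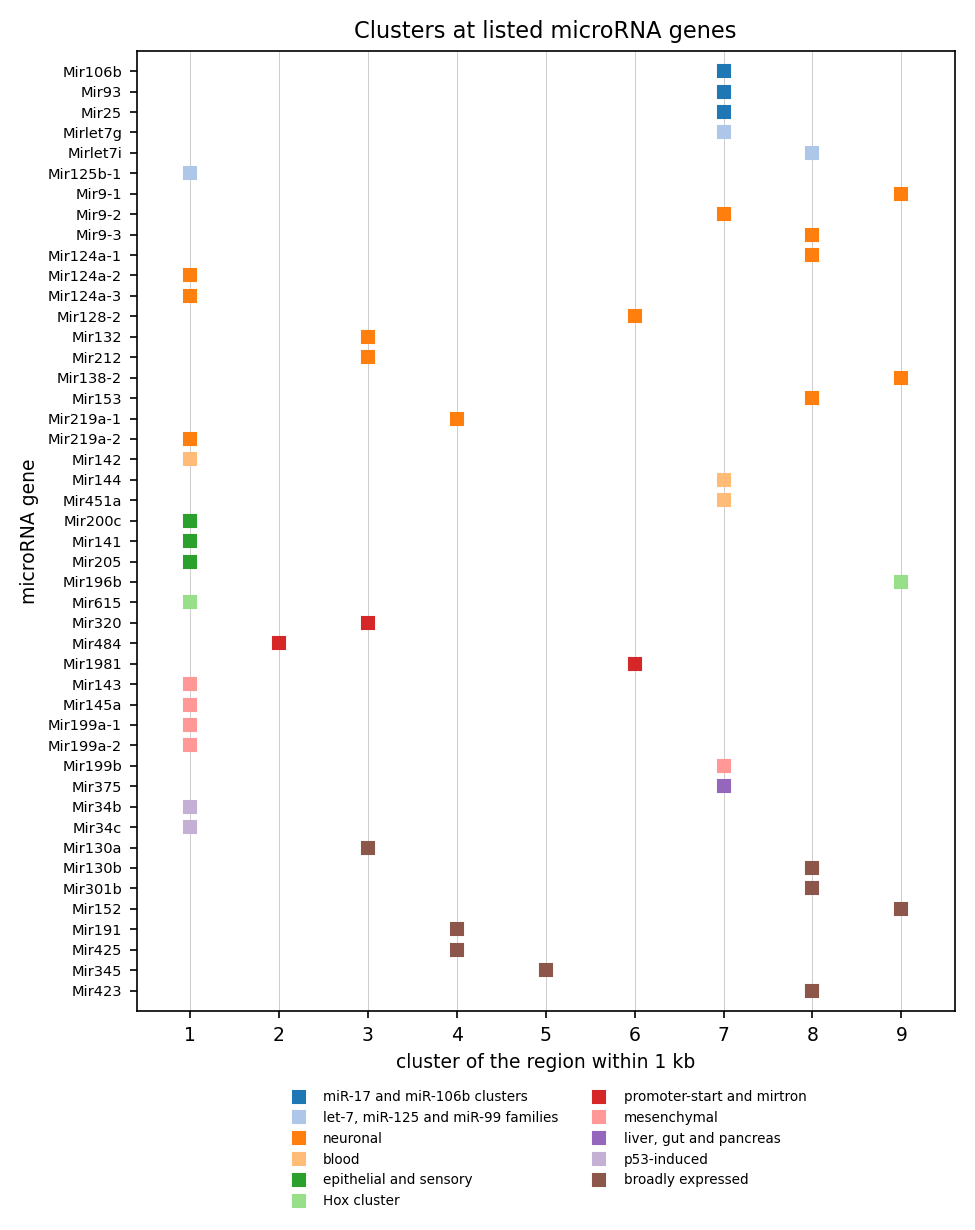
Cluster (horizontal axis) of the region within 1 kb of each listed microRNA gene (vertical axis) that has one, coloured by list; 46 genes are shown. The 3 Mir9 genes sit in clusters 9, 7 and 8, and the 3 genes of the miR-106b cluster share cluster 7.

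In the repeated microRNA clusters of Dlk1-Dio3 and Sfmbt2, no listed gene had a region. The Dlk1-Dio3 imprinted cluster on chromosome 12, transcribed from the maternal copy, had 0 of 40 listed genes with a region, which allows a share of up to 7.50% (exact upper bound 8.81%). Between its outermost listed genes (chr12:109563692-109743795, 180 kb) the annotation holds 58 microRNA genes, and no region midpoint fell in that span. The nearest midpoints were 6.19 kb (Mir410, cluster 9) to 75.3 kb (Mir370, cluster 1) from the listed genes. Beyond that span, Mir1247 lay whole in a cluster 9 region of 1353 bp that covered the starts of Dio3 and Dio3os. The intron cluster of Sfmbt2 on chromosome 2 had 0 of 25 listed genes with a region, which allows up to 12% (exact upper bound 13.7%). The listed genes of each cluster lie together in 1 span, so these bounds, which treat genes as independent, may be too low. Sfmbt2 (chr2:10370440-10595253) contains 72 annotated microRNA genes, none with a region, and 6 region midpoints. Many of those genes are near-identical copies, and how well reads can be placed on them was not assessed here. The share of microRNA genes with a region was 20.3% over all autosomes and 23.0% without chromosomes 2 and 12.

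Some microRNAs are made without Drosha, either from capped hairpins or from spliced short introns called mirtrons, and 3 of 6 listed genes of these kinds had a region (50.0%, 11.8 to 88.2). The 20.3% of all microRNA genes lies inside this interval. Mir484 and Mir320 are known to start at the transcription start of their precursor. Mir484 lay whole in a cluster 2 region of 1410 bp (chr16:14158815-14160224) that also covered the start of Marf1, a regulator of RNA in oocytes, and Mir320 lay whole in a cluster 3 region of 1087 bp at a limit of Polr3d, an RNA polymerase III subunit gene. Of the regions at microRNA genes, 8 of 10 in cluster 2 and 13 of 16 in cluster 3 lay at a protein-coding gene limit. These clusters were also more common at gene limits among other regions. There they held 7.89% and 12.5% of other regions, against 2.29% and 3.65% of other regions at all positions. Of the regions at microRNA genes that lay at gene limits they held 10.3% (4.53 to 19.2) and 16.7% (9.18 to 26.8). Mir1981, listed as a mirtron, had a cluster 6 region of 511 bp inside Mtarc2 that did not hold it. The 3 other listed genes, Mir877, Mir1224 and Mir702, were 4.22 to 6.93 kb from a region midpoint.

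The Mir484 hairpin (chr16:14159626-14159692, plus strand, mature arm in capitals) and the Marf1 promoter (chr16:14159225-14159524, read on the minus strand) are shown because 1 accessible region covers both. In the promoter, capitals mark GC boxes (GGGCGG on either strand), of which 8 were found when overlapping matches are counted, and the GC content was 68.3%. Sequences are from RefSeq, GRCm38.p6.
Mir484 hairpin: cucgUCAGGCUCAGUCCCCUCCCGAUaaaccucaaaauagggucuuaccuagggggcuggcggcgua
Marf1 promoter: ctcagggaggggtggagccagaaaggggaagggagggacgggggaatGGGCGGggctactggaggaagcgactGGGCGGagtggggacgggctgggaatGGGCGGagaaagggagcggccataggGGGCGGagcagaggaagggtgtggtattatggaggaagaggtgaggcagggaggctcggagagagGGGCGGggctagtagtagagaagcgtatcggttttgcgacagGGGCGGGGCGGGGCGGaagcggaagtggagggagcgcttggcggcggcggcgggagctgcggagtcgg

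Motifs were counted over all annotated starts that lay in a region at a microRNA gene, 97 starts in windows of 300 bases, where neighbouring starts of 1 gene overlap. The GC box GGGCGG, on either strand, was found in 82 (84.5%), against 66.3% of 14469 starts in any autosomal region and 36.0% of all 31396 starts. The CCAAT box was found in 41.2%, against 37.4% and 37.3%, and TATAAA in 8.25%, against 5.92% and 13.6%. CACGTG was found in 10.3%, against 10.3% of starts in any region and 7.14% of all starts. A match describes the letters of the window only.

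The hairpins themselves differed in base composition. Outside chromosome 18, hairpins of microRNA genes with a region had a median GC content of 57.4% (quartiles 52.0 and 64.3, 202 of 219 genes with a sequence), against 51.1% (quartiles 45.0 and 56.5, 704 of 869) for genes without. At protein-coding gene limits the medians were 62.1% with a region and 57.1% without, and between protein-coding genes 53.6% and 47.3%. At least 1 CG dinucleotide was present in 168 of the 202 hairpins (83.2%) and in 446 of the 704 (63.4%). The genes of the Dlk1-Dio3 span and of Sfmbt2, many of the latter near-identical copies, all belong to the group without a region. They were not left out of these comparisons. By cluster, the median ran from 47.6% at cluster 7 regions (27 hairpins) to 65.8% at cluster 3 regions (17) and 68.1% at cluster 2 regions (8). Inside protein-coding genes 430 of 564 genes without a region had a hairpin sequence (76.2%), under the 80% set as the minimum, so base composition was not compared there.

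The regions whose midpoints lay closest to a limit of a microRNA gene came from every position class, and most held the gene whole. Distances here and below are to the nearer limit of the gene, whether the midpoint lay inside or outside it. A midpoint inside a gene can thus rank behind one just outside another gene. In cluster 3 the midpoint was 1.5 bp from Mir3960, in a region of 1962 bp that also held Mir2861. That region covered the start of Cdk9, the kinase of the elongation factor P-TEFb. The midpoint of another region was 38.5 bp from Mir8102, at limits of Pip4k2b and Cwc25. In cluster 4 the midpoint was 1.5 bp from Mir1894 inside Ppp1r10 (4462 bp) and 3.5 bp from Mir5620 inside Clcn4 (1558 bp). At the start of Pnpla3, a lipase gene, it lay inside Mir6392, 21.0 bp from the nearer limit. In cluster 8 the closest included Mir1983 (6.0 bp) and Mir5625 at the start of Slc35f6 (9.5 bp). Of these, all but Mir1983 lay at or covered a limit of a protein-coding gene or lay inside one.

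In cluster 1 the closest were Mir7654 at a limit of Arglu1 (8.5 bp), Mir124a-3 (16.0 bp) and Mir6387 inside Trib2 (31.5 bp). In cluster 2 they were Mir7238 at the start of Ankrd10 (43.0 bp), Mir8098 at the start of Wdfy2 (91.5 bp) and Mir484 (106.5 bp), all 3 at a protein-coding start. Cluster 5 had only Mir6347 (123 bp), Mir3063 inside Igf2bp1 (195 bp) and Mir345. In cluster 6 the closest were Mir6349 (9.5 bp), Mir7089 inside Cdc25a, a cell cycle phosphatase gene (11.5 bp), and Mir2139 at the start of Klhdc7a (160.5 bp).

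In cluster 7 the closest were Mir93 (14.5 bp), Mir3079 inside Spatc1 (22.0 bp) and Gm23363 beside Mir199b (25.5 bp), each inside a protein-coding gene. In cluster 9 they were Mir196b (22.5 bp), Mir138-2 (42.5 bp) and Mir7237 inside Banp (77.5 bp), whose region of 200 bp covered the gene only in part. At the limit of the rule, 11 regions had a midpoint 900 to 1000 bp from a microRNA gene, 5 of them in cluster 1, and 11 lay at 1000 to 1100 bp, 2 of them in cluster 1.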

How the data were processed

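Per the submitters' processing notes, mm10 was the genome build and the tools included SAMtools 1.6, Picard, Bowtie2 2.3.3.1 and cutadapt 1.18. How regions were called, merged and clustered was not given in the sources used here. Deposited were 69689 regions with a cluster name and no value per library, so neither depth nor precision per library is known and the planned fits between groups were not run. The authors deposited no signal, score or p-value in it.

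Starts were converted to positions counted from 1. Genes, microRNA genes (biotype miRNA) and sequences came from RefSeq tables for GRCm38.p6, the same primary assembly as mm10. Members had a midpoint within 1000 bp of either limit of a microRNA gene. Weighted shares used 3 position classes by 3 width classes of equal number. Hairpins, mature RNAs and starts were matched by symbol (208 of the 228 genes had a mature sequence outside chromosome 18), and motifs were searched on both strands. Of 231 list entries, 219 matched an annotated gene by symbol.

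The members, lists and tests were chosen with earlier results of these data known. Genes were named by a rule. It took the first 4 members of each list with a region and the 3 regions per cluster nearest to a microRNA gene limit. It also took the 5 widest regions and the 5 with most microRNA genes. A region that the rule names is not reported here. Other list members with a region, families with a shared seed, the registry number and the base composition were chosen after their values were seen. Placing was tested on simulated regions with known positions. SciPy 1.17.1 gave the intervals and matplotlib 3.10.9 the figures, with pandas 2.3.3 and numpy 2.4.6 under Python 3.11.15.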

Additional observations from a re-analysis of the deposited data

How the results depend on the processing

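No paired analysis was possible because the table has no value per library; fits with a replicate block and without each replicate were not run for the same reason. Of the recomputed shares, positions, widths and coverage, 78 stayed within the interval of the reported value and 15 did not. The settings share most of their regions or genes with the main set, so this tally is not an independent check. Keeping 1 region per 50 kb gave 13 of the 78, and keeping only symbols beginning with Mir gave 14. Each of these settings kept 200 of the 205 regions. Without regions at protein-coding gene limits, clusters 2, 3 and 8 held 1.57%, 2.36% and 14.2% of 127 regions, 67.7% lay inside genes and 32.3% between them (0% at limits by construction), and the median width was 594 bp. With any overlap of the region with the microRNA gene in place of the midpoint (139 regions), cluster 7 held 5.04%, 48.9% lay at gene limits and 33.1% inside genes, and the median width was 1642 bp, since wide regions overlap more. The share of microRNA genes with a region was 12.9% with a window of 500 bp, 35.1% with 2.5 kb, 13.7% with any overlap, and 23.0% without chromosomes 2 and 12. The listed genes with a region numbered 77 with a window of 2.5 kb and 33 with 500 bp, against 46. Cluster 8 held 14.2% to 26.6% of regions in every setting tried, against 9.07% of all autosomal regions. Cluster 1 held 19.8% to 29.1%, against 18.7%. These settings change the mix of positions and widths, which the shares of all regions do not follow. The 14.2% of cluster 8 and the 29.1% of cluster 1 are without regions at gene limits. Among other regions, cluster 8 held 6.41% inside genes and 5.66% between them, and cluster 1 held 18.9% and 17.7%. The 26.6% of cluster 8 is with any overlap, where 48.9% of regions lay at gene limits. The share of cluster 1 was nearest to that of all regions with a window of 500 bp (19.8%) and with any overlap (21.6%). The neuronal list kept 10 genes at 500 bp and had 18 at 2.5 kb, and the Dlk1-Dio3 and Sfmbt2 lists had 0 in both. Restriction to symbols beginning with Mir, omission of chromosomes 2 and 12, and omission of the genes of both repeated clusters from the shares by registry number were added after seeing the data.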

Other observations

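On the X chromosome, outside the rule, 3 of 1371 regions lay at microRNA genes. They served 4 of 92 microRNA genes, Mir351 (cluster 7, 461 bp), Mir5132 and Mir718 (1 shared cluster 1 region of 964 bp) and Mir7091 (cluster 1, 751 bp). The share of autosomal microRNA genes with a region varied between chromosomes, from 9 of 97 on chromosome 12 (9.28%) and 17 of 147 on chromosome 2 (11.6%) to 12 of 36 on chromosome 13 (33.3%) and 16 of 46 on chromosome 3 (34.8%). The genes of chromosome 12 include 58 in the Dlk1-Dio3 span, and those of chromosome 2 include 72 in Sfmbt2, none with a region. The low shares of these 2 chromosomes thus include the repeated clusters.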
